A study of Mus musculus with 4 samples.

Results

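Strong ATAC-Seq sites whose signal was nearly equal in all 4 libraries were described here. A site was a member if it lay on an autosome, if the mean of its 4 normalized counts was at least 150 and if the largest of these values was at most 1.2 times the smallest. Of 82325 sites in the table, 80465 were autosomal, 16205 of these were strong (mean of at least 150), and 3982 strong sites were members, or 24.6%. The other 12223 strong sites served as the comparison. The 4 normalized counts chose the members, so the equality of these values is a description and was not tested.

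The libraries came from immortalized mouse embryonic fibroblasts (imMEFs), made immortal with the SV40 T antigen, on a C57bl6 background. The WT group held 2 lines with the gene HAT1 intact (Hat1+/+) and the KO group held 2 lines without it (Hat1-/-), with 1 library per line and no drug treatment stated. Whether the lines were clonal was not stated. Each group rests on a pair of lines, so a difference between lines and a difference between genotypes can be told apart only as far as 2 lines allow. Sites held about 9420000 reads in WT replicate 1, 11400000 in WT replicate 2, 7830000 in KO replicate 1 and 5650000 in KO replicate 2. A value of 150 then rests on about 176, 210, 139 and 99.5 reads, with counting errors of 7.53%, 6.90%, 8.47% and 10.0%, in the same order. At a value of 500 these errors were 3.78% to 5.49%.

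In ATAC-Seq, the Tn5 transposase inserts adapters where DNA is not wrapped tightly, so the reads over a region follow its accessibility. Promoters of broadly used genes often lie in CpG islands, stretches rich in unmethylated CpG that stay free of nucleosomes in most cell types. Enhancers, which lie away from start sites and often bind factors such as AP-1, TEAD and RUNX in fibroblasts, vary more between cell states. HAT1 acetylates newly made histone H4 before the histone is placed on DNA.

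The members were mostly promoters of protein-coding genes. A site was a promoter site if an annotated transcription start site (TSS), coding or not, was no more than 3 kb away. Promoters were 3410 of 3982 members (85.6%, 95% Wilson interval 84.5 to 86.7) and 7361 of 12223 other strong sites (60.2%, interval 59.4 to 61.1). Of the remaining members, 266 were intergenic, 253 intronic and 53 exonic. All intervals cover counting error only, and sites are not independent replicates.

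The following stretches show the sequence of members from the ends of the rankings by ratio and by signal. They are the 120 bases just upstream of the TSS that lies nearest the centre of the site, read on the strand of the gene from GRCm38 (mm10). Capitals mark GGGCGG (SP/KLF), CCGGAAG (ETS), CCAAT (NFY), GCGCANGCG (NRF1), TGACGTCA (CRE) and CACGTG (E-box), on either strand. The first 4 belong to promoters with nearly the same value in every library, and the last 2 to promoters of very high signal.
Cry2, chr2:92434044-92434163, minus strand: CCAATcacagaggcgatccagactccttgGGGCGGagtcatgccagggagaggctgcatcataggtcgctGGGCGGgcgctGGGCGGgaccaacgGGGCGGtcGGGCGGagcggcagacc
Sec23b, chr2:144556109-144556228, plus strand: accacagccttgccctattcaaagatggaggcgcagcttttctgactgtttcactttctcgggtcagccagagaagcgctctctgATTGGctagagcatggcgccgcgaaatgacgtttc
Sntb2, chr8:106935630-106935749, plus strand: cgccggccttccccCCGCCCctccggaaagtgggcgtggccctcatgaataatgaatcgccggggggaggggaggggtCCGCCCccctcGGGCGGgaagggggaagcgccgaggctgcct
Nfkbiz, chr16:55822139-55822258, minus strand: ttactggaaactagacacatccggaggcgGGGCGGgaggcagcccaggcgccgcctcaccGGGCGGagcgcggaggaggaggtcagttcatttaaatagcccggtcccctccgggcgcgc
Fam76b, chr9:13827596-13827715, plus strand: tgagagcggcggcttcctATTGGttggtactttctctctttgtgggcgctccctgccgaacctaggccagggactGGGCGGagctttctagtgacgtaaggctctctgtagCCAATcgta
Thbs1, chr2:118111756-118111875, plus strand: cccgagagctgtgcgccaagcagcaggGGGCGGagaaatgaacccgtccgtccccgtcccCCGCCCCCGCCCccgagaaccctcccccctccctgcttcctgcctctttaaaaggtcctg

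These 6 stretches held from 7 to 13 CpG dinucleotides each. Among stretches read in the same way but not shown, that of Shisa5 held 4 CpG dinucleotides and that of Amotl2 held none of the marked motifs. The Cry2 stretch held 5 GGGCGG matches and 1 CCAAT, and that of Sec23b held 1 CCAAT and no GGGCGG. A match is a description of the letters and does not show that a factor binds.

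The promoter site of Cry2, a cryptochrome of the circadian clock, had 491 and 495 normalized counts in WT and 492 and 493 in KO. The site of Sec23b, a coat protein of vesicles that leave the endoplasmic reticulum, had 376 and 373 in WT and 378 and 379 in KO. The site of Sntb2, a syntrophin that binds the dystrophin complex, had 365 and 361 in WT and 359 and 362 in KO. At each of these sites the 4 libraries lay closer together than the counting error of a single library, and the sites are the extremes of a ranking on this ratio. The same held for Shisa5 (347 and 347 in WT, 353 and 346 in KO) and for Nfkbiz, a nuclear regulator of NF-kB targets (526 and 525 in WT, 527 and 516 in KO). Among members with a mean of at least 300, the next smallest ratios at promoters were those of Ptpn2 (1.02), Man2c1 (1.03) and Asah1 (1.03).

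The promoter members with the highest signal were chosen by mean, so a wider spread than at the sites above follows from the choice. Within the limit of 1.2, their ratios ran from 1.07 (Amotl2) to 1.19 (Mnt), around the median of 1.14 over all members. Fam76b had 1168 and 1256 normalized counts in WT and 1260 and 1368 in KO. Egr1, an immediate-early transcription factor, had 1232 and 1274 in WT and 1327 and 1212 in KO. The WT and KO values of Egr1 overlapped, and those of Fam76b were higher in both KO lines than in both WT lines. Thbs1, which encodes the matrix protein thrombospondin 1, had 934 and 985 in WT and 1015 and 985 in KO. Setd5 had 971 and 948 in WT and 952 and 1092 in KO, and Dot1l, the histone H3 lysine 79 methyltransferase, had 925 and 913 in WT and 904 and 1063 in KO. At both of these sites KO replicate 2, the shallowest library, stood highest and the other 3 libraries lay together. Polr2h, a subunit shared by the nuclear RNA polymerases, Amotl2, an angiomotin family member, and Mnt, a repressor that pairs with MAX, had means of 953, 914 and 914.

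The promoter site of Hat1 was itself a member. It lay on chromosome 2 from 71388852 to 71389931 and had 390 and 384 normalized counts in WT (387 ± 4.24, SD, n = 2) and 438 and 368 in KO (403 ± 49.5, SD, n = 2). The difference between the means was smaller than the spread between the KO lines, and the largest value was 1.19 times the smallest. Accessibility of a promoter does not show whether the gene product is made, so this site gave no check of the genotype labels.

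Away from promoters, members with a small ratio were found in exons, introns and between genes. An exonic site 3.23 kb from the TSS of the zinc finger gene Zfp286 had 346 and 357 normalized counts in WT and 352 and 352 in KO. An intronic site 10.9 kb from the TSS of the basement membrane collagen gene Col4a2 had 552 and 577 in WT and 572 and 568 in KO. An intergenic site 4.76 kb from the TSS of the histone gene Hist1h2bl had 325 and 315 in WT and 324 and 322 in KO, and one 34.9 kb from that of the histone variant gene H3f3a had 444 and 433 in WT and 450 and 447 in KO. The nonpromoter member with the highest signal overlapped an annotated exon. It was 95.6 kb from Tomm20 and 9.96 kb from the nearest TSS of any gene, with 812 and 829 in WT and 920 and 836 in KO. Intronic members 50.7 kb from Ldlrad4 and 67.4 kb from Ltbp1, which encodes a binding protein of latent TGF-beta, had means of 743 and 693. An intergenic member 205 kb from Kirrel3 had a mean of 720.

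At the limits of the rule, members and other sites were alike in value. Just inside the ratio limit, Ubald2 had 510 and 527 normalized counts in WT and 578 and 612 in KO, and Rnft2 had 536 and 455 in WT and 546 and 546 in KO. Just outside it, Sgk1 had 574 and 625 in WT and 689 and 602 in KO, and Me2 had 534 and 537 in WT and 550 and 641 in KO. Just inside the limit on the mean, Dusp14 and Pfn1 had means of 150 each, and just outside it Morn1 and Macf1 had means of 149.75 each. Members had a median ratio of 1.14 and other strong sites a median of 1.41.

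**Figure D1:**
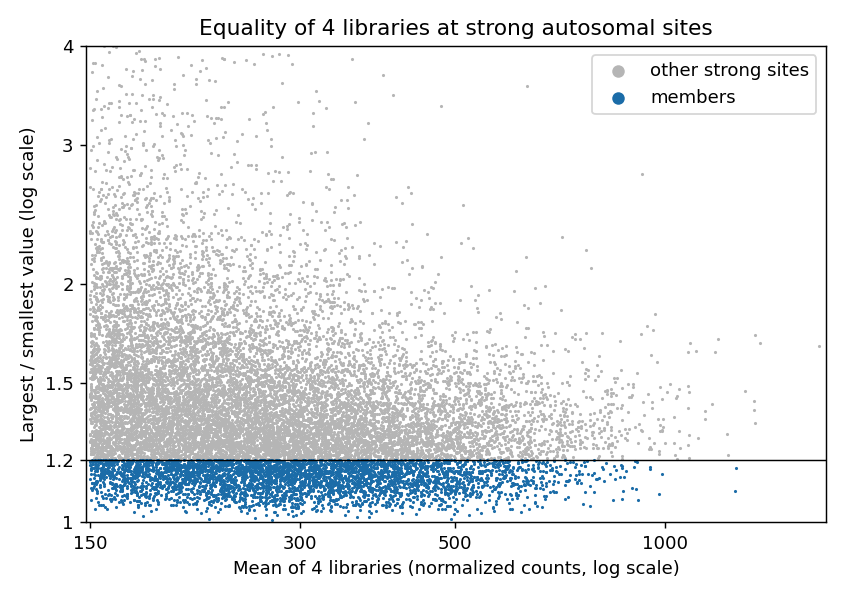
Largest over smallest value of the 4 libraries (log axis) against their mean in normalized counts (log axis) at 16205 strong autosomal sites, with members in blue below the line at 1.2 and other strong sites in grey. Ratios above 1.2 reach higher at low means, and 109 sites above a ratio of 4 are not drawn.

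The share of members differed with signal, and counting error is larger at weaker sites. Members were 695 of 4512 sites with a mean from 150 to 200 (15.4%), 1391 of 5640 from 200 to 300 (24.7%), 1448 of 4517 from 300 to 500 (32.1%) and 448 of 1536 from 500 (29.2%). The share of promoters was therefore compared within these ranges. It was 74.4% of members against 48.0% of other sites in the lowest range, then 85.0% against 58.0%, 89.4% against 70.7%, and 92.6% against 81.9% in the highest. Read the other way, members were 22.0%, 32.4%, 37.4% and 31.8% of the promoter sites and 8.24%, 10.4%, 14.6% and 14.3% of the nonpromoter sites in the same ranges. Promoters had the higher share in each of these ranges over all autosomes together.

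**Figure D2:**
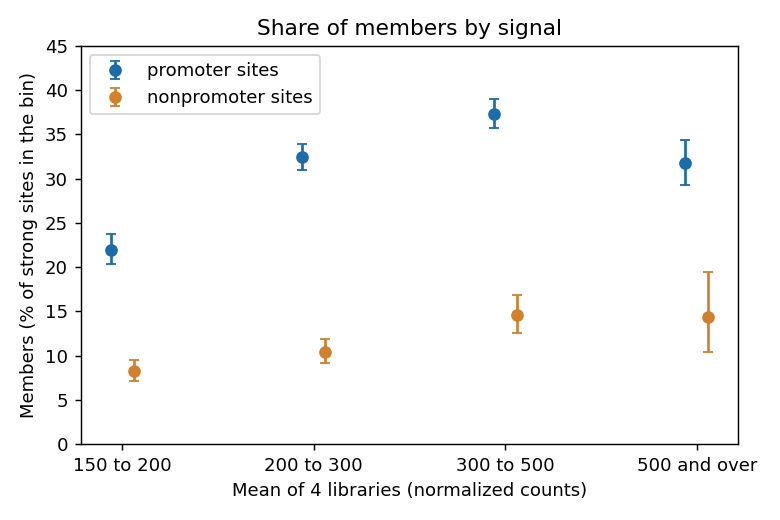
Share of strong sites that were members (%, vertical axis) in 4 ranges of mean signal (normalized counts, horizontal axis), for promoter sites (blue) and nonpromoter sites (orange), with 95% Wilson intervals. Promoter sites lie between 22.0% and 37.4% and nonpromoter sites between 8.24% and 14.6%.

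Outside promoters the shares were lower. Members were 31.7% of strong promoter sites (interval 30.8 to 32.5), 14.1% of exonic sites (11.0 to 18.02), 10.8% of intergenic sites (9.64 to 12.1) and 9.74% of intronic sites (8.66 to 10.9). The intervals of the intronic and intergenic classes overlapped, while that of the exonic class lay just above that of the intronic class. Over all autosomal sites, weak ones included, only 35.3% were promoters, 31.2% were intronic and 29.7% intergenic.

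Within promoters, members more often covered the start site of a coding gene. A protein-coding TSS lay inside the site in 87.6% of promoter members (interval 86.5 to 88.7) and in 73.9% of other strong promoters (72.9 to 74.9). No protein-coding TSS lay within 3 kb in 3.61% and 10.0%. Strong promoter sites over a protein-coding TSS were members in 35.5% of cases, those with no TSS inside the site in 17.3%, and those with no protein-coding TSS within 3 kb in 14.3%. The median signal differed too, at 298, 218 and 234 normalized counts. Promoters with protein-coding start sites on both strands within 1 kb were members in 37.8% of cases (interval 35.0 to 40.7), against 33.9% (32.9 to 35.0) with start sites on 1 strand, and their median signal was 349 against 284.

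Members were wider than other strong sites. The median width was 933.5 bp (quartiles 745 and 1135) against 823 bp (666 and 1026). Among promoters it was 961.5 against 886 bp, and among nonpromoter sites it was 725.5 against 741 bp, where the intervals of the medians overlapped (707 to 745 and 734 to 749). Part of the difference went with signal. The medians were 702 against 690 bp in the range of 150 to 200, 849 against 803, 1035 against 942, and 1282 against 1159 bp from 500. For nonpromoter sites alone the medians of members were the smaller ones, at 603 against 663 bp, 712.5 against 752, 853 against 862.5, and 1058 against 1065 bp. The widest member, at Nrp1, a coreceptor for semaphorins and VEGF, spanned 2396 bp and had 782 and 744 normalized counts in WT and 742 and 657 in KO. The narrowest, near AC132455.1, spanned 315 bp and had 174 and 147 in WT and 161 and 161 in KO.

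The sequence of members was richer in CpG. In the central 300 bases, the median GC content was 65.7% in members and 55.7% in other strong sites, and the median CpG ratio (observed over the number that base composition gives) was 0.81 against 0.46. Within a class the difference was smaller, as the ratio was 0.84 against 0.76 in promoters and 0.27 against 0.22 in nonpromoter sites. The GC content of the surrounding 100 kb had medians of 45.4% and 45.2%. By class the differences were opposite, with 45.3% in promoter members against 45.7% in other promoters, and 45.7% in nonpromoter members against 44.7% in other nonpromoter sites. Members had a median of 15 protein-coding start sites in 1 Mb around them and other strong sites 12, and among promoters both medians were 15.

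The share of members rose with the CpG ratio in both classes. At strong promoters it was 11.7% of 1069 sites below a ratio of 0.25, 18.4% of 1225 from 0.25 to 0.5, 31.3% of 2316 from 0.5 to 0.75, and 37.9% of 6161 sites from 0.75. At nonpromoter sites it was 8.54% of 3139, 11.3% of 1768, 18.5% of 373 and 23.4% of 154. CpG-poor promoters and CpG-poor nonpromoter sites had therefore more alike shares than CpG-rich ones. Signal also differs with CpG content, and the part of signal in this trend was not tested.

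**Figure D3:**
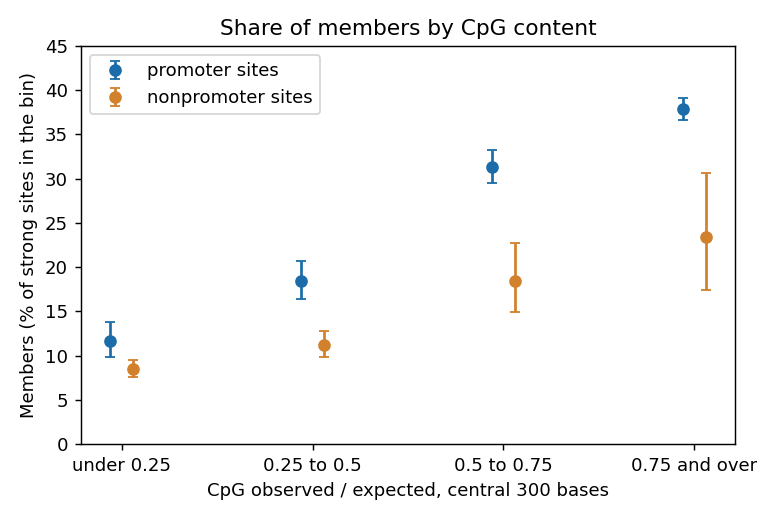
Share of strong sites that were members (%, vertical axis) by the observed over expected CpG ratio of the central 300 bases (horizontal axis), for promoter sites (blue) and nonpromoter sites (orange), with 95% Wilson intervals. The promoter share goes from 11.7% to 37.9% and the nonpromoter share from 8.54% to 23.4%.

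Motif matches in the central 300 bases, on either strand, differed between promoter members and other strong promoters. GGGCGG, bound by SP and KLF factors, was found in 68.2% of promoter members and 56.8% of the others. CCGGAAG (ETS) was found in 17.0% against 13.5%. GCGCANGCG (NRF1) was found in 10.3% against 8.91%, and its intervals overlapped (9.35 to 11.4 and 8.28 to 9.58). The motifs of inducible and lineage factors were less frequent in members, with TGANTCA (AP-1) in 6.33% against 13.4%, GGAATG (TEAD) in 9.71% against 15.1%, and TGTGGT (RUNX) in 10.1% against 13.97%. CCAAT (NFY) stood at 28.5% against 31.5%. AAGATGGC (YY1), TGACGTCA (CRE), CACGTG (E-box) and the CTCF core differed by less than 1 percentage point. Over all strong promoters GGGCGG was found in 60.4% and TGANTCA in 11.2%.

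The differences for GGGCGG and TGANTCA were smaller within ranges of CpG content but did not all vanish. Over all strong promoters, members were 35.7% of those with GGGCGG and 25.4% of those without, and 17.9% of those with TGANTCA and 33.4% of those without. At promoters with a CpG ratio of at least 0.75, members were 38.3% of those with GGGCGG (interval 36.9 to 39.7) and 36.5% of those without (34.0 to 38.9), and the intervals overlapped. For TGANTCA the shares were 30.5% of 154 promoters with it (23.8 to 38.2) and 38.1% of those without (36.8 to 39.3), and the intervals overlapped. Below a ratio of 0.5, members were 19.6% of promoters with GGGCGG (16.1 to 23.6) and 14.3% of those without (12.8 to 16.0), 25.9% with CCGGAAG (17.6 to 36.4) and 14.9% without (13.5 to 16.5), and 11.5% with TGTGGT (9.17 to 14.3) and 16.7% without (14.96 to 18.5), and these intervals did not overlap. For GGAATG a difference remained between ratios of 0.5 and 0.75, where they were 23.8% with it (19.3 to 29.0) and 32.5% without (30.5 to 34.5). In every other range of the CpG ratio the intervals of these motifs overlapped, and the CCGGAAG share below 0.5 rests on 81 promoters. At a ratio of at least 0.75 the order for TGTGGT was reversed, at 38.8% with it and 37.8% without. For GCGCANGCG the intervals overlapped in all ranges. Members were 22.2% of 9 promoters with it and 15.3% of those without below 0.5. They were 25.2% and 31.7% from 0.5 to 0.75, and 36.4% and 38.1% from 0.75. This split by CpG content was made after the motif shares had been seen.

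The AP-1 motif was about as frequent in the 572 nonpromoter members as in the 4862 other strong nonpromoter sites, with TGANTCA in 50.2% against 51.5%. GGGCGG was found in 17.5% against 9.38%, and TGTGGT in 25.7% against 32.3%. The CTCF core, the motif of the factor that anchors chromatin loops, was found in 14 members, or 2.45% (interval 1.46 to 4.07), against 1.07% (0.817 to 1.4). A set of 3 CTCF matches of high signal is shown with 1 of the AP-1 matches, with the match in capitals.
CTCF match 40.1 kb from Rfx8, chr1:39761543-39761613, plus strand: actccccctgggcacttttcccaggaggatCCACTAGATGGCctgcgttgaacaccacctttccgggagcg
CTCF match 25.98 kb from Arhgef19, chr4:141273387-141273457, plus strand: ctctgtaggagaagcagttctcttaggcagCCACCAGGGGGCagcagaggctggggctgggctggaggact
CTCF match 7.05 kb from Bcan, chr3:87987114-87987184, minus strand: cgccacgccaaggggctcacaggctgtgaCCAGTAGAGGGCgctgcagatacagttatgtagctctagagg
AP-1 match 24.1 kb from Hfe2, chr3:96500254-96500324, plus strand: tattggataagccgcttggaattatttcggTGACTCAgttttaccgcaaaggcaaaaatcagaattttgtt

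All 4 of these sites were intergenic. The site near Rfx8 had 376 and 392 normalized counts in WT and 449 and 424 in KO, higher in both KO lines. The site near Arhgef19 had 363 and 401 in WT and 383 and 373 in KO, and that near Bcan had 356 and 335 in WT and 370 and 362 in KO. The AP-1 site near Hfe2 had 587 and 666 in WT and 699 and 690 in KO. Nonpromoter members also lay nearer to genes than other nonpromoter sites, at a median of 11.0 kb from a TSS against 14.01 kb, and 6 of 572 were more than 100 kb away (1.05% against 3.02%).

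Genes with a strong site within 1 kb of a TSS were then counted by function. Over all protein-coding genes, 9411 had a strong site and 3356 of these (35.7%) had a member as their strongest site. Subunits of RNA polymerases had members at 11 of 23 genes with a strong site (47.8%), tRNA synthetases at 18 of 36 (50%), chaperonins at 5 of 8 (62.5%) and spliceosome proteins at 11 of 26 (42.3%). Respiratory chain genes had 26 of 68 (38.2%), zinc finger Zfp genes 82 of 221 (37.1%), translation initiation factors 15 of 43 (34.9%), proteasome subunits 11 of 33 (33.3%), cytosolic ribosomal proteins 21 of 67 (31.3%) and mitochondrial ribosomal proteins 17 of 64 (26.6%). The Wilson interval of each of these lists held the 35.7% of all genes, so none is set apart from the rest.

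The member with the highest signal in each list gives its scale. Mars, the cytosolic methionine tRNA synthetase, had 606 and 614 normalized counts in WT and 682 and 684 in KO, and Eif4e, which binds the mRNA cap, had 613 and 565 in WT and 636 and 645 in KO. In both genes the KO lines were above the WT lines. Mrps36 had 571 and 611 in WT and 599 and 597 in KO, and Zfp319 had 686 and 639 in WT and 628 and 693 in KO, with WT and KO values that overlapped. Psmb9, a proteasome subunit, had 484 and 465 in WT and 491 and 471 in KO, and Rpl10a had 499 and 472 in WT and 543 and 522 in KO. Snrpd3, Atp5s and Hspe1 had means of 543, 497 and 430. Hspe1 and Hspd1, the mitochondrial chaperonin pair, share 1 site between their start sites and count once each.

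The lists with no member were AP-1 and Hox. All 8 AP-1 genes with a strong site had ratios from 1.22 to 1.53, and 4 of them (Batf2 and Fosl1 on chromosome 19, Fos on 12 and Fosb on 7) lay on chromosomes where few strong sites met the rule. The closest was Jun, with 1101 and 1210 normalized counts in WT and 1275 and 1338 in KO, and the farthest Fosl1, with 257 and 231 in WT and 354 and 278 in KO. The 9 Hox genes with a strong site, regulators of body position, had ratios from 1.34 to 1.99. Hoxa11 had 247 and 134 in WT and 226 and 266 in KO, and WT replicate 2 was lowest there. With 0 of 8 and 0 of 9, the upper ends of the intervals were 32.4% and 29.9%, just below the 35.7% of all genes, and the genes of a Hox cluster are neighbours and not independent. Collagen genes had members at 3 of 13 (Col6a2, Col8a2 and Col1a1).

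The label of the cells was checked against marker genes. All 10 fibroblast markers had a site, 7 of them strong, and 4 of these were members: Col1a1 (319 and 290 in WT, 327 and 343 in KO), Pdgfrb, Twist1 and Fn1. The 3 fibroblast markers without a strong site, Thy1, Prrx1 and Col3a1, had means of 78.75, 111.25 and 112.75. Vim had 759 and 810 in WT and 977 and 919 in KO and exceeded the limit. None of the 3 epithelial and 3 endothelial markers had a strong site, with means from 20.5 to 93.5 and from 34 to 123.25, a range that overlaps that of the weaker fibroblast markers. For blood, Cd68 had a mean of 179.75 while Ptprc and Spi1 had no site, and for pluripotent cells Sox2 had a mean of 63 while Pou5f1 and Nanog had none.

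The order of the lines within the narrow range of the members was compared with that over all strong sites. Both KO values lay above both WT values in 1082 members (27.2%), against 28.5% of all strong sites, and below them in 383 (9.62%), against 6.66%. The median log2 ratio of KO to WT was 0.04 in members and 0.10 over all strong sites. KO replicate 2 was highest in 37.3% of members and WT replicate 2 lowest in 35.3%. The rule used these values, so no difference is read from them.

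A further measure came from leaving a library out. It used the same 4 normalized counts that chose the members, so it is not independent support for their equality. Sites were chosen on the other 3 libraries alone, with a mean of at least 150 and values within 1.2, and the value of the left-out library was then set against that mean. WT replicate 1 lay within a factor of 1.2 at 78.8% of 6387 chosen sites, against 68.9% of all sites strong in the other 3 libraries. For WT replicate 2 it was 87.0% of 5624 against 78%, for KO replicate 1 it was 83.0% of 5790 against 74.2%, and for KO replicate 2 it was 69.9% of 7496 against 62.9%. Sites that did not meet the rule in the other 3 libraries gave 62.5%, 73.3%, 69.2% and 56.9%. Sites with equal signal in 3 lines thus had a closer value in the remaining line more often, in each of the 4 cases. It did not hold at every level of signal. From a mean of 500, KO replicate 1 lay within 1.2 at 88.2% of chosen and 88.6% of other sites. For KO replicate 2 these shares were 67.2% and 72.0%. The chosen sites also differed in kind, as promoters were 77.0% to 82.7% of them and 53.5% to 59.1% of the others. The lowest share of sites chosen on a chromosome was 3.13% to 12.6%. The part of chromosomes in the closer values was not tested.

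Promoters stood above other sites in this measure too, which used the same normalized counts and so is not independent of the shares above. Among chosen sites, WT replicate 1 lay within 1.2 at 85.7% of promoters and 55.6% of nonpromoter sites. The shares were 89.5% and 75.1% for WT replicate 2, 86.9% and 67.8% for KO replicate 1, and 72.4% and 58.7% for KO replicate 2. The same order was found among sites that had not met the rule in the other 3 libraries, at 74.2% and 46.6% for WT replicate 1, 78.04% and 66.7% for WT replicate 2, 77.2% and 57.6% for KO replicate 1, and 63.2% and 49.5% for KO replicate 2. The class difference was thus found in chosen and other sites alike. Other strong promoters had a median signal of 268.5 and other strong nonpromoter sites 217, and the part of signal was not tested.

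The lines of each genotype were compared at the other strong sites, while pairs across genotypes were not. The KO pair holds KO replicate 2, the shallowest library. At other strong promoters the WT lines lay within 1.2 of each other in 65.8% of sites and the KO lines in 49.1%. At other nonpromoter sites these shares were 44.98% and 38.8%. Ratios of more than 2 were found at 4.84% of the other promoters and 16.5% of the other nonpromoter sites.

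Members were unevenly spread over chromosomes. On chromosome 19 only 7 of 617 strong sites were members (1.13%, interval 0.55 to 2.32), and the median log2 offset of KO replicate 1 from the site mean was 0.34 there. Chromosome 14 had 40 of 566 (7.07%), with offsets of 0.21 in WT replicate 1 and -0.17 in WT replicate 2. Chromosome 15 had 109 of 809 (13.5%), with 0.17 in KO replicate 1, chromosome 7 had 154 of 1040 (14.8%), with 0.20 in KO replicate 2 and -0.18 in WT replicate 1, and chromosome 12 had 94 of 543 (17.3%), with -0.21 in WT replicate 1. Together these 5 chromosomes had 404 members at 3575 strong sites (11.3%). The other 14 autosomes had 3578 at 12630 (28.3%), with shares from 25.2% to 32.8%.

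**Figure D4:**
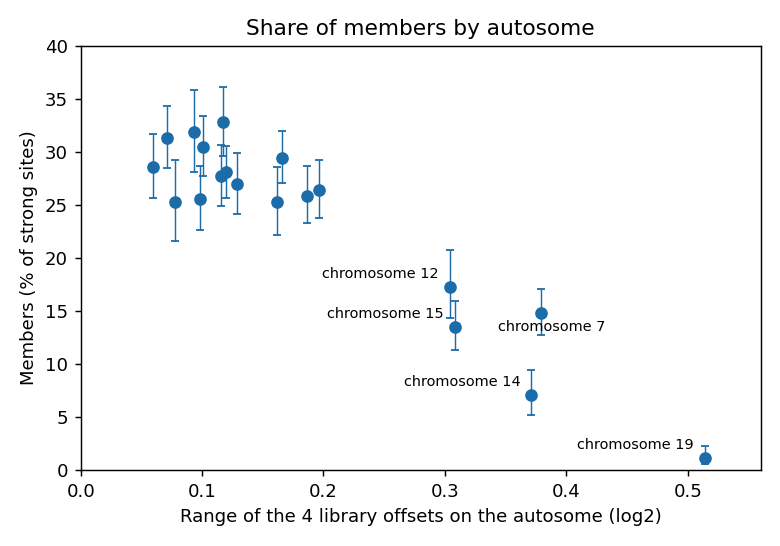
Share of strong sites that were members (%, vertical axis) on each autosome against the range of the 4 libraries' median offsets on it (log2, horizontal axis), with 95% Wilson intervals. The 5 named chromosomes have ranges above 0.3 and shares of 1.13% to 17.3%, and the other 14 lie between 25.2% and 32.8%.

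When each library was centred on its median per chromosome, 5322 sites met the rule and 3067 of the 3982 members (77.0%) were kept. Chromosome 19 then had 34.8%, and 41.7% of promoters against 14.95% of nonpromoter sites met the rule. Centring takes away the median offset of each library on a chromosome, so a higher share on the 5 chromosomes was built in. What caused the offsets was not tested. As deposited, members on chromosome 14 were promoters in 47.5% of cases, below the 64.8% of its strong sites, and on chromosome 19 the shares were 71.4% and 71.3%. On each other autosome the share was higher in members. Without the 5 chromosomes, promoters were 85.8% of members and 58.8% of other strong sites. In stretches of 20 Mb with at least 30 strong sites, every one of 128 held a member, and 9 had fewer than 10% members, all on chromosomes 12, 14 and 19.

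The surroundings of members differed slightly from those of other strong sites. The next strong site along the chromosome was a member after 30.4% of members and after 22.7% of other strong sites. Without chromosomes 7, 12, 14, 15 and 19, the shares were 31.9% (30.4 to 33.5) and 26.9% (25.99 to 27.8). Membership of both sites came from the values that the rule used, so these shares are a description. Class and signal were not held fixed, and their part was not tested. Weak sites (mean under 150), which could not be members, were grouped by their nearest strong site within 50 kb. The median absolute log2 fold change between KO and WT was 0.24 for 9165 weak sites near a member (interval of the median 0.23 to 0.25) and 0.26 for 30208 near another strong site (0.26 to 0.27). For weak sites with a mean from 50 it was 0.19 against 0.21.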

How the data were processed

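Per the labels and methods, alignment of the paired-end reads by the authors was to mm10 and used BWA 0.7.12, peaks came from MACS2 2.1.0, and DESeq2 compared them. The deposited values are a score, a count per site that the authors divided by a library factor and rounded. How reads with several matches and the Tn5 offset were handled is not given in the sources used here. Columns of the authors' own comparison (fold changes and p-values) were not used. Depth was estimated from the pattern of whole numbers that scaling leaves in low values, so it is approximate, since reads and fragments could not be told apart.

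The 4 libraries were grouped by genotype label, and replicates are numbered in order of accession, which pairs no samples. The members and lists were chosen with earlier results of these data known. No test was run, because the rule used all 4 values; shares have 95% Wilson intervals and medians order-statistic intervals. The scripts were tested on simulated data. Fold changes of weak sites used log2(value + 1). Sites were annotated with GENCODE models on GRCm38, and all lay within their chromosome's length. A gene was given its strongest site within 1 kb of a TSS. Named sites were the promoter of Hat1; the 8 promoter and 4 nonpromoter members with the highest mean; as many with the smallest ratio among means of at least 300 (promoters of protein-coding genes); the widest and narrowest; the 2 on each side of each limit; and the highest in each of 13 lists. The CTCF and AP-1 sites with sequences, and genes of the lists other than the highest member, were chosen after their values were seen. Nonpromoter sites carry the name of the gene with the nearest protein-coding TSS. Values were computed with scipy 1.17.1, pandas 2.3.3 and numpy 2.4.6 in Python 3.11.15.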

Additional observations from a re-analysis of the deposited data

How the results depend on the processing

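In every setting tried, a larger share of members than of other strong sites were promoters, their CpG ratio was higher and their median width was larger. A ratio of at most 1.1 gave 852 members, at most 1.3 gave 7446, and a mean of at least 300 gave 1896. Leaving out each library gave from 5624 (WT replicate 2) to 7496 (KO replicate 2) members, and 6387 without WT replicate 1, since 3 values meet the rule more easily than 4.

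The promoter share of members was 89.2% at a ratio of 1.1, 82.0% at 1.3, 81.7% and 90.2% at means of 100 and 300, 83.9% with equal totals, 82.5% with the range in units of counting error, 81.5% for promoters within 1 kb and 82.5% within 3 kb of a protein-coding TSS, and 77.0% to 82.7% without each library. The median width was 908 bp at a ratio of 1.3, 879 and 1085 at means of 100 and 300, 922 with equal totals, 920.5 when centred per chromosome and 897 to 917.5 without each library. With the range in units of counting error it was 865 against 845 bp in other strong sites, the smallest difference. The median CpG ratio was 0.82 at a ratio of 1.1, 0.78 at 1.3, 0.78 and 0.84 at means of 100 and 300, 0.80 with equal totals and when centred per chromosome, 0.79 in units of counting error, 0.74 over the whole site, and 0.75 to 0.79 without each library.

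The CTCF share of nonpromoter members was 4.35% at a ratio of 1.1 and 4.94% at a mean of 100. Others had 1.16% and 1.70% there. The share at a ratio of 1.1 rests on few sites, as 89.2% of its 852 members were promoters. Without each library the share was 1.63% to 2.06% in members and 0.90% to 1.05% in others. The lowest share on a chromosome was 0% (chromosome 19) at a ratio of 1.1 and at a mean of 300, 4.38% at 1.3, and 25.5% when centred per chromosome, then on chromosome 18. Leaving out chromosomes 7, 12, 14, 15 and 19, chosen after seeing the data, gave 25.2%. Without each library it ran from 3.13% to 12.6%, and without KO replicate 1 the lowest was chromosome 14 (12.6%). The median absolute log2 fold change of weak neighbours was 0.25 at a mean of 100, 0.21 at 300, 0.25 when centred per chromosome and 0.30 to 0.34 without each library, below the value near other strong sites each time. With the other 3 libraries within 1.1, the left-out library lay within 1.2 at 80.5% (WT replicate 1), 88.5% (WT replicate 2), 84.6% (KO replicate 1) and 70.4% (KO replicate 2). Apart from settings whose construction shows it, the cause was not tested. No paired analysis was possible because numbers in order of accession pair no samples and no test was run. WT replicate 1 and KO replicate 2 carry the same number in their line names, and whether these lines are related was not stated. Counting error at a value of 150 was largest in KO replicate 2 (10.0%).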

Other observations

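Chromosome X lies outside the rule. Of its 223 sites with a mean of at least 150, 86 had all 4 values within 1.2 of each other (38.6%, 95% Wilson interval 32.4 to 45.1, counting error only).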
